A study of Mus musculus with 12 samples.

Results

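The genes that cells use to make cholesterol and fatty acids were followed in the liver and the brain of aged mice after repeated heat. The set held 34 genes, chosen by symbol as genes driven by the sterol regulatory element binding proteins (SREBPs), out of 25239 gene symbols in the count table, and all 34 had enough counts to be tested in both tissues. The animals were male C57BL/6J wild-type mice aged 24 months. The heat stress group was kept at 40 ± 0.5 °C and a relative humidity of 60 ± 5% for 3 h a day on 15 days, and the control group was not. Messenger RNA of brain or liver tissue was sequenced in 3 libraries a group and tissue, 12 in all, with 10466198 to 15609040 counts each. The labels call the starting material cytoplasmic RNA, while the methods describe RNA extracted from whole tissue homogenates. With 3 animals a group in the methods, a brain and a liver library may come from 1 mouse, but the labels do not tie them together. In the least covered case a member still had 16 counts in a library. Because the tissue was not separated into cell types, fewer cells of a type and less RNA per cell cannot be told apart. Hepatocyte markers summed to between 67400 and 106000 CPM (counts scaled to the normalized library total) in liver, and neuron markers summed to between 5400 and 7230 CPM in brain against 14.8 to 30.2 CPM in liver, as the tissue labels say. Among the liver libraries, control replicate 1 and heat stress replicate 2 carried skeletal muscle transcripts, at 323 and 1920 CPM in sum, while the other liver libraries held 0.86 to 5.49 CPM. Of the liver libraries, 3 also bore the suffix 2nd in their column names, namely control replicate 2 and heat stress replicates 1 and 3, and the sources used here do not explain it.

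SREBPs are made as proteins of the endoplasmic reticulum membrane. When membrane cholesterol is low, the escort protein Scap carries them to the Golgi, where proteases free the part that enters the nucleus, and when sterols are abundant the Insig proteins hold Scap back. The form from Srebf2 acts mainly on cholesterol genes and the main hepatic form from Srebf1 on fatty acid genes. Insulin and feeding raise hepatic fatty acid synthesis through this route, and the brain makes its own cholesterol, since lipoproteins of the blood do not cross into it. At promoters, SREBPs bind next to the factors NF-Y, which recognizes a CCAAT box, and Sp1, which binds GC boxes.

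The promoters were searched to see what the members shared beyond their names. RefSeq promoters on GRCm38.p6 were matched for 28 of the 34 members. Those of Fads1, Fdft1, Fdps, Scd1, Sqle and Stard4 are named only. In the 250 bases before a start, CCAAT on either strand (ATTGG on the other) was present in 22 of the 28 members (78.6%), against 37.5% of all 27025 genes with a promoter. Of the members, 11 held at least 2 such matches, as did 11.5% of all genes. A GC box, GGGCGG on either strand, was present in 24 of 28 members (85.7%) and in 35.4% of all genes. The letters TCACNCCAC, a form of the sterol element, were found on either strand in 1 member, Hmgcs1, and in 1.22% of all genes. Of the 28 members, Scap, Acat2, Acly, Acaca, Elovl6 and Fads2 held no CCAAT in this window. The matches are letters in a window and no binding was measured. The shares over all genes include genes not expressed in these tissues, and no comparison with expressed genes alone was made. Shown here, 5′ to 3′ in the direction of the gene, are promoters of 4 members to which the expression results return, with CCAAT or ATTGG and the sterol element letters in capitals and GC boxes left in lower case. They lie at chr13:119690101-119690350 on the plus strand for Hmgcs1, chr5:114444019-114444268 on the plus strand for Mvk, chr8:122443423-122443672 on the minus strand for Mvd and chr11:120824548-120824797 on the minus strand for Fasn.
Hmgcs1: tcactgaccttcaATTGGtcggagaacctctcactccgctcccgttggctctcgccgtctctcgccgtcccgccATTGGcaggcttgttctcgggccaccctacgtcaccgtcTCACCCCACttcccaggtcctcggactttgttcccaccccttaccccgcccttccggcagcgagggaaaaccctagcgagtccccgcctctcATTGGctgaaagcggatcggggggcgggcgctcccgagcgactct
Mvk: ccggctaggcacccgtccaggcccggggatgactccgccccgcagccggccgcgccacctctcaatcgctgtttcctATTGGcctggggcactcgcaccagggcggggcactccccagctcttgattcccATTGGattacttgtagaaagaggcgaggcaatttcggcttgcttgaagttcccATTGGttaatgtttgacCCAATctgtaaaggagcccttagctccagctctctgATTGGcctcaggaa
Mvd: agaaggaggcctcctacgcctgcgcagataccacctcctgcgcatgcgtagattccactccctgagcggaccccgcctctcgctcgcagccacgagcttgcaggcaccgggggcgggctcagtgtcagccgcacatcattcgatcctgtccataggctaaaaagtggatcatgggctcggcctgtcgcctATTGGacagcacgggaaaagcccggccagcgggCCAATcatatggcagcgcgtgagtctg
Fasn: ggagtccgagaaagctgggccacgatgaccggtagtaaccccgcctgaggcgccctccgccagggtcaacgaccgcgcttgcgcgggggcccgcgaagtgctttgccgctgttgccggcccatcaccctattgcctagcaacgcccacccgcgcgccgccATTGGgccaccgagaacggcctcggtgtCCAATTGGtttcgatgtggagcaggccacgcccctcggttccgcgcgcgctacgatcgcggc
The Mvk window held 5 CCAAT matches, that of Hmgcs1 held 3 beside its sterol element, and that of Mvd held 2. In Fasn there were 3, of which a forward and a reverse match overlap in CCAATTGG. Over all member promoters the 42 matches lay between 12 and 237 bases before the start, with a median of 64.5.

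The first comparison set control liver beside control brain, to place each member before any heat. Levels are given as RPKM, counts scaled to the library and to each kilobase of exon, so that genes can be compared with each other. Of the 34 members, 30 were higher in liver and 1 was lower (adjusted p under 0.05 and at least 2-fold in edgeR's quasi-likelihood test), where 27.5% of all 15824 genes tested were higher and 37.2% lower in liver. The median log2 difference, liver over brain, was 2.51 over the members and -0.24 over all genes. The median level over the members was 56.9 RPKM in control liver and 8.5 RPKM in control brain.

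Scd1, which puts the double bond into saturated fatty acids, had the highest level of the set in both tissues, with 2880 ± 753 RPKM (SD, n = 3) in control liver and 64.5 ± 9.98 RPKM in control brain, a 44.7-fold difference. In liver it was followed by Insig1 (372 ± 41.5 RPKM) and by Sc5d and Ebp, enzymes of the last steps to cholesterol, with 238 ± 41.6 and 190 ± 11.7 RPKM. Between Sc5d and Ebp stood Fads2 with 194 ± 95.6 RPKM. In brain the order after Scd1 was Fads2 (48.1 ± 4.73 RPKM), Hmgcs1 (43.5 ± 4.03 RPKM) and Fads1 (41.1 ± 2.61 RPKM), and then Insig1 with 22.5 ± 2.05 RPKM. Fads1 and Fads2 encode the desaturases of polyunsaturated fatty acids, and Hmgcs1 the cytosolic synthase that makes HMG-CoA. Most of this order cannot be read closely, since of the 33 pairs of neighbours only 4 in liver and 3 in brain had replicate ranges that did not overlap. The widest tissue gaps after Scd1 belonged to Ebp and Sc5d, at 39-fold and 32.4-fold.

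On GRCm38, Srebf1 spans chr11:60199089-60222581 and Srebf2 chr15:82147181-82205379, with Insig2 at chr1:121304353-121332589, Acss2 at chr2:155517948-155585724 and Acaca at chr11:84129672-84401651. Srebf2 was the member called lower in liver. Its level was 19.6 ± 2.82 RPKM in control brain and 6.59 ± 3.54 RPKM in control liver, 2.96-fold higher in brain, whereas Srebf1 had 10 ± 0.953 RPKM in brain and 101 ± 57.5 RPKM in liver, 10-fold higher in liver. Scap, Acaca and Pnpla3 were not called. Scap had 14.7 ± 6.81 RPKM in liver and 7.56 ± 0.704 RPKM in brain, Acaca, which makes malonyl-CoA, had 5.53 ± 1.93 and 2.94 ± 0.166 RPKM, and Pnpla3, a protein of lipid droplets, had 5.34 ± 3.16 and 7.84 ± 2.79 RPKM. Without liver control replicate 1, a muscle-bearing library, 2 members were called lower in liver instead of 1.

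**Figure D1:**
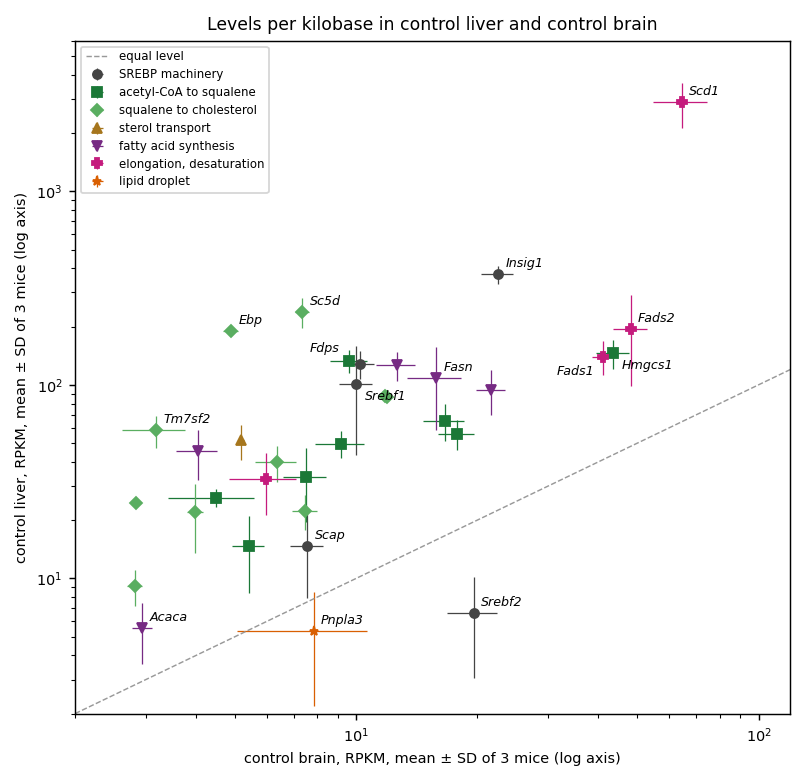
Mean level of each of the 34 members in control brain (horizontal, RPKM, log axis) and control liver (vertical, RPKM, log axis), with bars for the SD of 3 mice and symbols for roles in the pathway. Srebf2 and Pnpla3 lie under the line of equal level, the other members lie above it, and Scd1 stands at the upper right with 2880 RPKM in liver and 64.5 RPKM in brain.

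The second comparison asked what heat stress did to the set in liver. No member was called at an adjusted p under 0.05, and neither was any of the 12296 genes tested (0%). The members' values nevertheless lay mostly on the low side. Of the 34, 25 had a log2 fold change below 0 (73.5%), where the share over all genes was 48.2%, and the median was -0.20 for the members and 0.01 for all genes. The members' median was -0.07 without heat stress replicate 3, -0.08 without control replicate 1 and -0.30 without control replicate 2. At an unadjusted p under 0.05, 4 members were lower and 0 higher, with 2.87% of all genes lower and 2.97% higher. In 4 members (Mvd, Fdft1, Cyp51 and Hsd17b7) every heat stress library lay below every control library, which held for 5.73% of all genes, and in 0 members it was the reverse, as in 5.38% of all genes. DESeq2 called 0 members too, with 0.307% of 11397 genes lower and 0.246% higher, and its smallest adjusted p among the members was 0.13, for Mvd.

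The cholesterol branch had low values at about the share of the whole set. Among its 18 enzymes, 14 had a log2 fold change below 0 (77.8%, with 73.5% of all members), with a median of -0.20. They were 7 of the 8 for the steps from acetyl-CoA to squalene and 7 of the 10 from squalene to cholesterol. The share was 80% in the SREBP machinery and in fatty acid synthesis with its supply, of 5 genes each. The branch's median ran from -0.30 to -0.10 with a library left out, and was nearest 0 without heat stress replicate 3 or control replicate 1 (-0.12). Mvd, which decarboxylates mevalonate diphosphate to the first isoprenoid unit, had 56.2, 41.2 and 27.2 CPM in the control livers and 24.8, 22.9 and 13.4 CPM in the heat stress livers. Every heat stress liver was below every control, and the log2 fold change was -1.03 (standard error, SE, 0.30, adjusted p = 0.556). Cyp51, the lanosterol demethylase, measured 225, 283 and 287 CPM in control and 221, 180 and 188 CPM after heat stress. Here the groups separated by a narrow gap, with a log2 fold change of -0.43 (SE 0.19, adjusted p = 0.849).

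Sqle, the squalene epoxidase that gates the sterol part of the pathway, had 92.6, 89.6 and 68.1 CPM in control and 75.7, 60.4 and 47.6 CPM in heat stress liver, with overlap and a log2 fold change of -0.45 (SE 0.21, adjusted p = 0.877). Msmo1, a methylsterol oxidase, had 321, 379 and 381 CPM against 347, 249 and 213 CPM, a log2 fold change of -0.42 (SE 0.22, adjusted p = 0.906). Its heat stress replicate 1 sat among the controls. Hmgcs1 had 496, 461 and 398 CPM in control and 378, 408 and 181 CPM after heat stress, where replicate 3 alone was far down and the log2 fold change was -0.48 (SE 0.29, adjusted p = 0.93). The remaining enzymes of the branch ranged from -0.37 for Hsd17b7 to 0.12 for Tm7sf2 on the log2 scale.

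Of the SREBP machinery, Insig2 had 246, 376 and 290 CPM in the control livers and 182, 259 and 162 CPM in the heat stress livers. Only heat stress replicate 2 reached into the control range, and the log2 fold change was -0.60 (SE 0.24, adjusted p = 0.834). Insig1, itself a classical SREBP target, had 637, 824 and 893 CPM against 794, 497 and 386 CPM, with a log2 fold change of -0.49 (SE 0.28, adjusted p = 0.926). Srebf1 had 587, 237 and 304 CPM in control and 286, 416 and 262 CPM after heat stress, and Srebf2 had 48, 24.4 and 21.8 CPM against 23.5, 36.2 and 27.1 CPM. Both were highest in the 2 libraries with skeletal muscle transcripts. Their log2 fold changes, -0.23 and -0.12, became 0.24 and 0.31 without control replicate 1. Scap, with 105, 53.3 and 60.1 CPM against 77.7, 94.7 and 77.3 CPM, had the same library at the top and a log2 fold change of 0.19 (SE 0.26, adjusted p = 0.963).

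In the fatty acid branch 6 of 9 members were below 0 in liver, with a median log2 fold change of -0.01. The 5 genes of synthesis and its supply, of which 4 were below 0, had a median of -0.20, and the 4 of elongation and desaturation, of which 2 were, had 0.06. The median of the 9 changed sign with single libraries, from -0.19 without control replicate 2 to 0.08 without heat stress replicate 3, and was also above 0 without control replicate 1 (0.03) or control replicate 3 (0.04). Fasn, the synthase that builds palmitate, had 1080, 453 and 829 CPM in control liver and 716, 730 and 438 CPM after heat stress, with a log2 fold change of -0.33 (SE 0.32, adjusted p = 0.947) that was -0.04 without control replicate 1 and -0.61 without control replicate 2. Acaca measured 81.6, 46.6 and 61.5 CPM against 63.1, 72.5 and 53.1 CPM, a log2 fold change of -0.01. Scd1 had 9770, 7040 and 11800 CPM in control and 16300, 13000 and 7400 CPM in heat stress liver, with a log2 fold change of 0.36 (SE 0.32, adjusted p = 0.947) that was 0.08 without heat stress replicate 1 and 0.60 without heat stress replicate 3. In each of these 3 genes the mice of a group differed from each other by more than the group means did. Pnpla3 had 8.52, 2.85 and 5.03 CPM in control and 4.32, 1.81 and 1.26 CPM after heat stress, with overlap and a log2 fold change of -1.16 (SE 0.50, adjusted p = 0.846). That value rested on single libraries, being -0.68 without control replicate 1, -1.85 without heat stress replicate 1 and -0.50 without both libraries with skeletal muscle transcripts.

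The members' values differed between single livers. Heat stress replicate 3 was the lowest of the 6 libraries for 21 of the 34 members. It lay at a median of -0.48 from the control mean on the log2 scale, while heat stress replicates 1 and 2 lay at -0.03 and -0.07. Over all genes the median was 0.0229 in heat stress replicate 3, and 0.008 and 0.0237 in replicates 1 and 2. Control replicate 1 was the highest for 18 members. How many of all genes were lowest or highest in a library was not counted. Without heat stress replicate 3 the count of members lower at an unadjusted p under 0.05 was 1 in place of 4. It was 2 without control replicate 2 or control replicate 3, and 7 without heat stress replicate 1. The share of all genes at that level was not counted in these fits, so the change may not be particular to the members. With both muscle-bearing libraries left out 1 member was called, Insig2, at a log2 fold change of -0.96 and an adjusted p of 0.0267 from edgeR. In that fit of 2 against 2 libraries 81 of 12239 genes were called (0.662%). Both heat stress libraries left in it bore the suffix 2nd, while only 1 of the 2 controls did. Within the 3 libraries without the suffix 2nd (1 heat stress, 2 control), 25 of the 34 members lay below 0. Within the 3 with it (2 heat stress, 1 control) 18 did, all of them also below 0 in the first. The share of all genes below 0 was not counted within either. Insig2 differed by -0.05 without and -1.13 with the suffix on the log2 scale, Mvd by -0.76 and -1.15, and Cyp51 by -0.50 and -0.47. Of the 5 clock genes tested, 3 were higher (Nr1d1, Dbp and Ciart) and 1 lower (Arntl) at an unadjusted p under 0.05 in edgeR. Over all genes 2.97% were higher and 2.87% lower. The list, in which rises and falls offset each other, summed to 119 to 206 CPM in control and 206 to 326 CPM in heat stress liver. Adipocyte markers summed to 17.9 to 32.3 CPM and 11 to 46.4 CPM. The part of the clock and of adipocytes in these values was not tested.

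**Figure D2:**
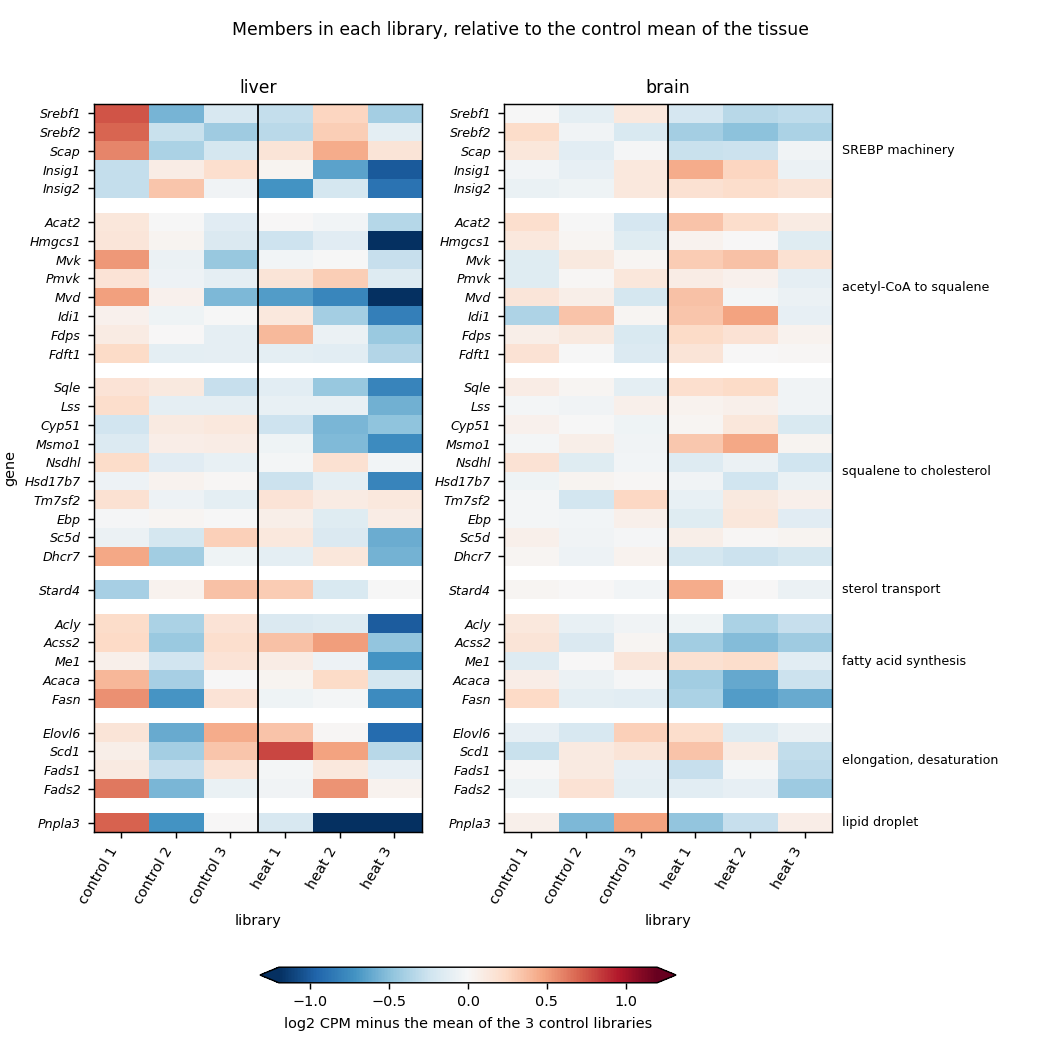
Each member (rows, grouped by role) in each of the 6 liver and 6 brain libraries (columns), coloured by log2 CPM minus the mean of the 3 control libraries of that tissue, with colours saturated beyond 1.2 in either direction. The column of liver heat stress replicate 3 is blue for most members (median -0.48), and in brain the rows of Acss2, Acaca and Fasn are blue in all 3 heat stress columns.

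The third comparison was heat stress against control in brain. No member and none of the 14806 genes tested was called by edgeR (0%). The set as a whole was split evenly, 17 members above and 17 below 0, where 50.3% of all genes lay below 0, and the median log2 fold change was 0.0023 for the members and -0.003 for all genes. At an unadjusted p under 0.05, 1 member was higher and 5 were lower, where all genes had 10.0% higher and 10.0% lower. Every heat stress brain lay below every control brain in 6 members and above in 2, against 12% and 12.9% of all genes. The 6 were Srebf1, Srebf2, Dhcr7, Acss2, Acaca and Fasn, and the 2 were Insig2 and Mvk. DESeq2 called 2 members, Fasn (adjusted p = 0.0199) and Acss2 (adjusted p = 0.0426), both lower, and of 11597 genes it called 2.22% lower and 2.43% higher.

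Of the 34 members, 6 lay below all controls, where 12% of all genes did. They were mainly of the fatty acid branch and the SREBPs, but whether these roles were more frequent among them was not tested. After the correction for length and GC described below, the fold changes of Fasn, Acaca, Srebf2 and Srebf1 were smaller in size, while that of Acss2 changed little. Fasn had 298, 232 and 230 CPM in the control brains and 193, 158 and 165 CPM in the heat stress brains. The highest heat stress brain was under the lowest control, with a log2 fold change of -0.56 (SE 0.14, adjusted p = 0.170). Acss2, which makes acetyl-CoA from acetate, measured 66.4, 52.9 and 60.5 CPM against 44.5, 41.4 and 44.4 CPM, a log2 fold change of -0.47 (SE 0.12, adjusted p = 0.170). Acaca had 77.7, 70 and 72.6 CPM in control and 54.9, 47.8 and 61.4 CPM after heat stress, a log2 fold change of -0.42 (SE 0.12, adjusted p = 0.170). Malonyl-CoA from Acaca is the substrate of Fasn, so these genes encode consecutive steps.

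Srebf2 had 238, 199 and 180 CPM in control brain and 154, 145 and 157 CPM in heat stress brain, a log2 fold change of -0.43 (SE 0.13, adjusted p = 0.170). Srebf1 followed with 81.9, 75.7 and 90.1 CPM against 71.6, 65.3 and 66.7 CPM, a log2 fold change of -0.28 (SE 0.11, adjusted p = 0.206). Scap had 90, 75.3 and 81.4 CPM against 68, 68.6 and 79.8 CPM, with overlap and a log2 fold change of -0.19 (SE 0.12, adjusted p = 0.38). The Insig genes lay on the other side. Insig2 had 49, 49.7 and 56.6 CPM in control and 58.5, 59.7 and 57.5 CPM after heat stress, separated by less than 1 CPM, with a log2 fold change of 0.18 (SE 0.11, adjusted p = 0.361). Insig1 had 99.3, 94.7 and 111 CPM against 139, 121 and 96.3 CPM, a log2 fold change of 0.22 (SE 0.14, adjusted p = 0.399).

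The cholesterol enzymes were spread around 0 in brain. Of the 18, 12 had a log2 fold change above 0, with a median of 0.03, while 7 of the 9 fatty acid members were below 0, with a median of -0.22. Mvk, the mevalonate kinase whose promoter is shown above, had 19.1, 23 and 21.4 CPM in control and 26.2, 27 and 24 CPM after heat stress, a log2 fold change of 0.29 (SE 0.12, adjusted p = 0.238). Msmo1 had a log2 fold change of 0.29 (adjusted p = 0.254) with overlapping groups. Hmgcs1 had 319, 295 and 263 CPM against 300, 292 and 264 CPM, a log2 fold change of -0.04 (SE 0.13, adjusted p = 0.897). Sqle had 64.2, 61.3 and 55.4 CPM against 69.1, 70.9 and 58.4 CPM, a log2 fold change of 0.13 (SE 0.12, adjusted p = 0.546). Neither separated the groups. Dhcr7, a reductase that ends the pathway, was the sole cholesterol enzyme with all heat stress brains below all controls, at a log2 fold change of -0.23 (adjusted p = 0.253). Scd1, with 380, 493 and 510 CPM against 579, 489 and 373 CPM, overlapped fully (log2 fold change 0.06, SE 0.19, adjusted p = 0.88).

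Across all genes in brain, the log2 fold change varied with transcript length and base composition. The median log2 fold change of all genes went from 0.17 in the shortest of 4 length classes to -0.15 in the longest, and from 0.15 in the lowest of 4 GC classes to -0.11 in the highest. Fasn, at 10050 bases and 57.9% GC, and Acaca, at 9513 bases, are long, and Srebf1 and Srebf2 have 58.4% and 57.9% GC. After a correction of each library for length and GC, chosen after these values were seen, the log2 fold change was -0.19 for Fasn, -0.21 for Acaca, -0.20 for Srebf2 and -0.08 for Srebf1, while Acss2 kept -0.45 and Mvk had 0.37. The median of the fatty acid members went from -0.22 to -0.11, and 3 members in place of 5 were lower at an unadjusted p under 0.05. When all 12 libraries shared 1 estimate of the spread, 0 members were lower and 0 higher at that level. The higher count, 1, went to 0 without control replicate 3, heat stress replicate 1 or heat stress replicate 2 and to 3 without heat stress replicate 3. The shares of all genes at that level were not counted in these alternative fits. Liver had a GC trend too, in the other direction. Its median log2 fold change of all genes went from -0.10 in the lowest GC class to 0.10 in the highest. Over its length classes it went from 0.04 in the shortest to -0.02 in the longest. Over all alternative fits, this correction among them, the liver median of the members ran from -0.30 to -0.07. Of the members lower in liver at an unadjusted p under 0.05 in edgeR, Insig2 and Cyp51 have 46.0% and 46.2% GC. Mvd and Pnpla3, also lower at that level, have 59.0% and 58.4%. Hmgcs1 and Msmo1 have 43.1% and 44.7%. The part of base composition in the liver values of these genes was not tested.

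Marker lists of other cells were read beside these values. Over all genes in brain, 10.0% were lower and 10.0% higher at an unadjusted p under 0.05 in edgeR. All 5 endothelial markers were lower at an unadjusted p under 0.05, with sums of 63.4 to 130 CPM in control and 42 to 59.6 CPM after heat stress, and 3 of 5 choroid plexus markers were, with 58 to 132 CPM against 17.9 to 52.5 CPM. The oligodendrocyte list, from cells that make much lipid for myelin, had 0 of 6 past that level and summed to 7070 to 12800 CPM in control and 8880 to 12000 CPM in heat stress brain. Neuron markers had 0 of 5. Of 5 astrocyte markers 1 was lower, Aldh1l1, and the list summed to 1350 to 1670 CPM in control and 1180 to 1620 CPM after heat stress. Of 4 microglia and macrophage markers tested, P2ry12 was higher and Csf1r lower, with sums of 168 to 216 CPM and 168 to 192 CPM, and Clec4f was at 0 in every brain library. Of 3 hepatocyte markers tested, Ttr, which the choroid plexus also makes, was lower, and the list summed to 1110 to 2420 CPM against 229 to 1070 CPM. The skeletal muscle and adipocyte lists had 0 past that level. Of the 6 clock genes Dbp and Ciart were higher and Arntl lower, while Npas2, Nr1d1 and Per2 were not past that level. Dbp had 74, 67.3 and 68 CPM in control and 97.4, 104 and 108 CPM in heat stress brain. Arntl had 38, 28.7 and 30.7 CPM against 21.9, 22.1 and 24.6 CPM. The list summed to 233 to 333 CPM in control and 279 to 321 CPM in heat stress brain, a sum in which rises and falls offset each other. Of all these markers DESeq2 called the endothelial Pecam1, Kdr and Tek, the choroid plexus genes Kl, Aqp1 and Slc4a5, and Csf1r lower, with adjusted p from 0.00184 (Kl) to 0.0475 (Csf1r), and Dbp higher (adjusted p = 0.00639). Of all genes DESeq2 called 2.22% lower and 2.43% higher. The marker lists were chosen with earlier results of these data known. From these same data the paper names Aqp1, Slc4a5 and Pecam1 as lower in brain and lists Kl in its brain heat map. Their calls here are therefore not separate evidence. The part of these cells and of the clock in the members' values was not tested.

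**Figure D3:**
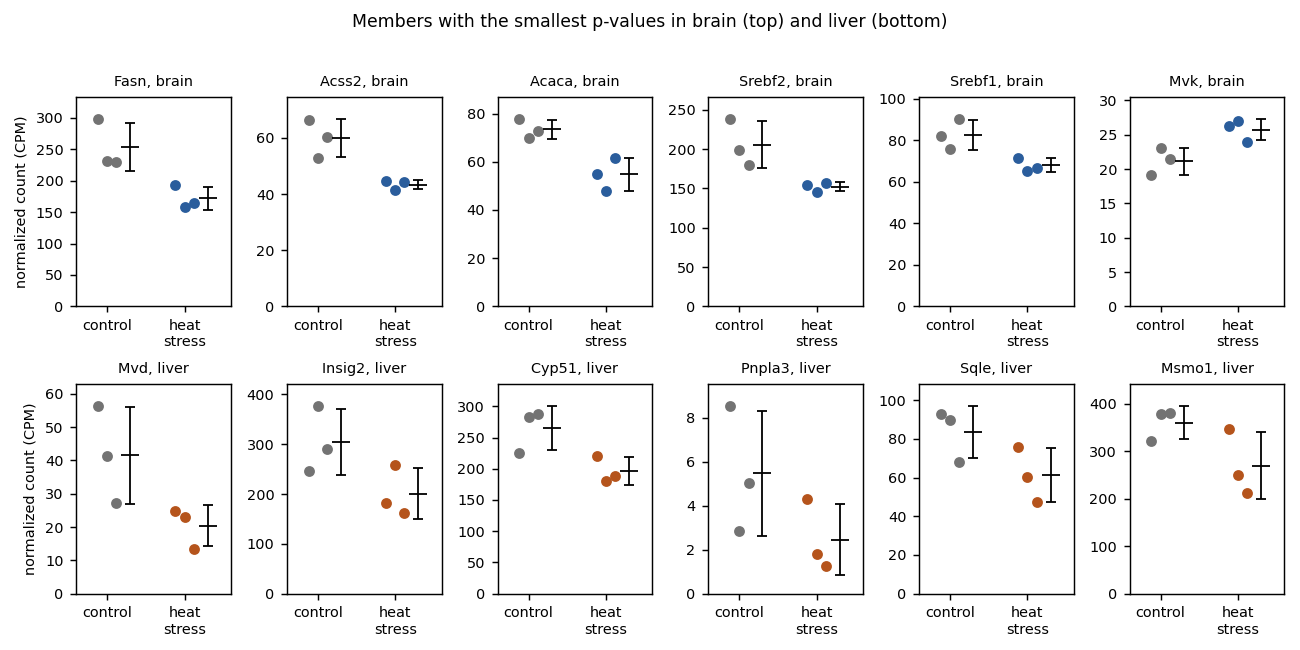
Normalized counts (CPM, vertical axes from 0) of the members with the smallest p-values in brain (top row) and liver (bottom row), with a point for each of the 3 control and 3 heat stress mice and, beside them, the mean with the SD. In brain the groups do not overlap in any of the 6 genes, and in liver they do not overlap in Mvd and Cyp51.

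Whether the heat effect differed between the tissues was tested directly. No member was called (smallest adjusted p = 0.516), and 1 of 15824 genes was (0.00632%). At an unadjusted p under 0.05 there were 4 members, each more negative in liver than in brain, where 5.91% of all genes were more negative and 3.73% more positive. They were Mvd, with a difference, liver minus brain, of -1.15 on the log2 scale (SE 0.41), Insig2 with -0.77 (SE 0.28), Msmo1 with -0.71 (SE 0.27) and Sqle with -0.60 (SE 0.27), all with an adjusted p of 0.516 from edgeR. Mvd, Msmo1 and Sqle are cholesterol enzymes, and Insig2 restrains SREBP release. Of all 34 members 21 had a difference below 0, and 14 of the 18 cholesterol enzymes did. The share of all genes below 0 was not counted. The median difference was -0.19 over the members, -0.28 over the cholesterol enzymes and -0.04 over all genes. These differences were not corrected for length and GC. In the fatty acid genes low in brain the difference was 0.60 for Acss2 (SE 0.37, adjusted p = 0.594), 0.39 for Acaca (SE 0.31, adjusted p = 0.669) and 0.20 for Fasn (SE 0.44, adjusted p = 0.911). The count of 4 was 10 without liver control replicate 1 and 8 without liver heat stress replicate 1, and 2 without brain control replicate 1 or 3 or brain heat stress replicate 1 or 2. With same-numbered brain and liver libraries of a group taken as 1 mouse it was 5, and 0 were called. The share of all genes at that level was not counted in these fits. A change of the members' count therefore cannot be told from a change over all genes.

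**Figure D4:**
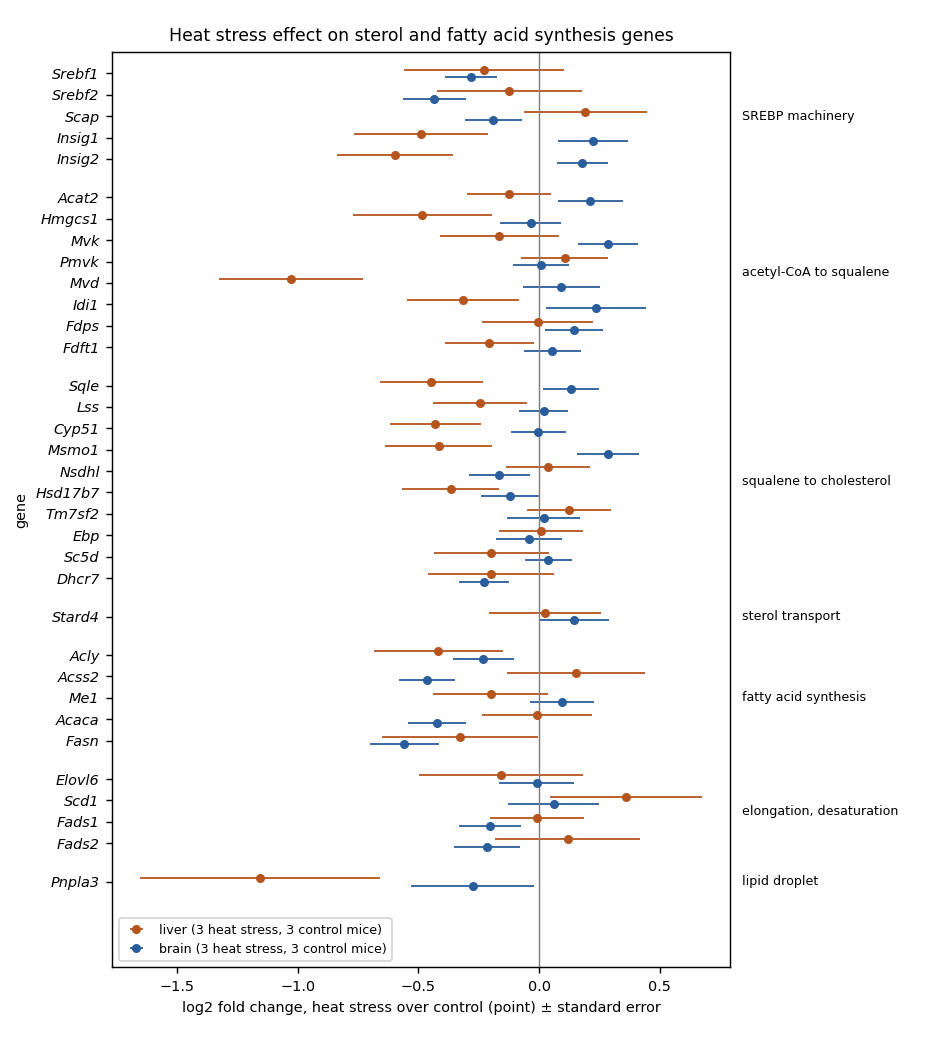
Log2 fold change of heat stress over control (points) with its standard error (bars) for the 34 members in liver and brain, ordered by role. Mvd and Pnpla3 reach -1.03 and -1.16 in liver, the latter -0.68 without control replicate 1, and in brain Fasn, Acss2, Acaca and Srebf2 lie between -0.56 and -0.42.

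Genes next to the set in the pathway were read in the same tests. Of 40 such genes, 38 were tested in liver and 33 in brain, and none was called in either. In liver 5 were higher at an unadjusted p under 0.05 and 0 lower, where all genes had 2.97% higher and 2.87% lower. Lpin1, a phosphatidate phosphatase of triglyceride synthesis that is also a coactivator, had 58, 33.7 and 54.8 CPM in control and 78.6, 95.3 and 92 CPM after heat stress, a log2 fold change of 0.86 (SE 0.22, adjusted p = 0.465). Of the 9 genes for sterol esterification, hydrolysis and efflux, 8 had a log2 fold change above 0 and 1 below (11.1%, with 48.2% of all genes below 0). The one below was Abca1, the exporter that loads cholesterol onto lipoproteins (-0.37, adjusted p = 0.926). Above 0 were, among others, Soat2, which esterifies cholesterol (0.48, adjusted p = 0.846), Abcg5, a subunit of the canalicular sterol exporter (0.44, adjusted p = 0.846), and Mylip, a ubiquitin ligase induced by sterols (0.53, adjusted p = 0.846). Cyp46a1, a cholesterol hydroxylase known from neurons, had a log2 fold change of 1.13 (adjusted p = 0.628) at 4.37 ± 1.69 CPM in control liver. In brain 2 were higher and 1 lower at that level, of 33, where all genes had 10.0% each way. Dgat2, which completes triglycerides, and Coq2, of ubiquinone synthesis, were higher (0.37 and 0.30, adjusted p = 0.223 and 0.219), and Lipa, the lysosomal lipase, was lower (-0.39, adjusted p = 0.202).

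Several members share exons with neighbours, and the strand setting of the counting is not given in the sources used here, so their counts are uncertain. Fdft1, squalene synthase, shares 774 bases with Ctsb on the opposite strand, which had 87304 counts in all libraries against 21229 for Fdft1. Tm7sf2 shares 532 bases with Vps51 on the same strand. Acss2 overlaps Ggt7 by 197 bases and Gss by 163, Cyp51 overlaps Akap9 by 166 and Srebf1 overlaps Rai1 by 109, each on the opposite strand. Scd1 and the Fads genes have close paralogs whose reads may be shared.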

How the data were processed

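Male C57BL/6J mice gave 12 libraries of stranded messenger RNA. Within a tissue each was treated as 1 mouse. The fit of all 12 treated brain and liver libraries as independent, although they may share mice. The authors deposited raw read counts per gene symbol. Their methods name FastQC 0.11.9, Trimmomatic 0.39, HISAT2 2.2.1 on mm10 and featureCounts of Subread 2.0.1, and elsewhere Tophat2 and HTSeq. The annotation and strand setting are not given in the sources used here. Their tables of fold changes and p-values were not used.

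In R 4.3.3, each tissue's heat stress and control libraries were fitted with edgeR 4.0.16 (quasi-likelihood, robust, TMM, filterByExpr with a minimum count of 10 and total of 15, Benjamini-Hochberg adjustment over all genes tested). A fit of 4 groups gave the difference between tissues and control liver against control brain. CPM of single genes were TMM-normalized within a tissue, and sums of marker lists were scaled to raw library totals. RPKM used TMM over all libraries and exon union lengths of GENCODE M21 on GRCm38 (mm10). Deviations and within-suffix differences used log2(CPM + 0.5). Alternatives were DESeq2 1.42.0, other normalization, filters, blocks (the replicate number, or same-numbered brain and liver libraries as 1 mouse) and libraries left out. Procedures were tested on simulated data. Members and lists were chosen with earlier results of these data known. Values in every library are given for the SREBP machinery, for Hmgcs1, Sqle, Acaca, Fasn and Scd1, and for the members with the smallest p-values. Other genes are named by fold change or overlap and were chosen after their values were seen. Standard errors came from the fold change and the F statistic. The spread may be partly technical.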

Additional observations from a re-analysis of the deposited data

How the results depend on the processing

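Under RLE normalization, other filters, DESeq2, a single fit of 12 libraries, blocks, the suffix as a term, the length and GC correction and each library left out, 438 alternative log2 values of named genes were computed. Of these 418 kept their direction and side of the threshold, 3 passed the threshold and 17 changed sign. None of these genes was called in the main heat tests, so keeping the side of the threshold meant staying uncalled. Where members at an unadjusted p under 0.05 are counted below, the share of all genes in the same fit was not counted.

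In liver the members lower at an unadjusted p under 0.05 (4) were 7 in 1 fit of all 12 libraries, 2 with the replicate number as a block, and 1 to 7 with a library left out. The higher count (0) was 1 with both muscle-bearing libraries left out, which also gave 1 called member, and 0 to 1 with a library left out. The SREBP machinery median (-0.23) ran from -0.42 to 0.24 with a library left out. Srebf1 ran from -0.47 to 0.24 and Srebf2 from -0.33 to 0.31 in the same way, and they were 0.0021 and 0.12 without both muscle-bearing libraries and 0.0551 and 0.0485 with the suffix as a term. Acaca (-0.01) was 0.0151 with the block, -0.19 to 0.21 with a library left out (0.08 without heat stress replicate 3), 0.0893 without both muscle-bearing libraries, 0.17 with the suffix term and 0.0433 after the length and GC correction.

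In brain DESeq2 called 2 members. The higher count (1) was 0 with DESeq2, in 1 fit of all 12 libraries, without a filter and with the replicate block, and 0 to 3 with a library left out. The lower count (5) was 0 in 1 fit of all 12 libraries and 3 after the length and GC correction. That correction put the medians of the fatty acid roles at -0.11, of fatty acid synthesis alone at -0.19 and of the SREBP machinery at 0.004, with Scap at 0.004. With a library left out Hmgcs1 ran from -0.11 to 0.0315 (0.0178 without heat stress replicate 3) and Scd1 from -0.10 to 0.21 (-0.06 without control replicate 1). The cause was not tested.

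The 4 members at an unadjusted p under 0.05 for the difference between tissues were 2 to 10 with a library left out and 5 with same-numbered brain and liver libraries as 1 mouse, a block that left 30 members higher and 1 lower in control liver against control brain. In control liver against control brain the members lower in liver (1) were 1 to 2. Per kilobase of the longest transcript, the median levels were 81.5 RPKM in liver (56.9 by exon union) and 12.3 RPKM in brain (8.5).

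The labels do not pair control and heat stress mice by replicate number. Same-numbered deviations correlated at -0.27, 0.17 and -0.18 in brain and -0.51, -0.48 and 0.08 in liver. With so few mice these correlations cannot exclude a pairing. The replicate block changed no other call.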
